A study of Sus scrofa with 6 samples.

Results

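The genes described here carry choline into cells and build phosphatidylcholine from it. They are 10 of the 17201 genes listed in the deposited count files, taken by name: the carriers SLC44A1, SLC44A2 and SLC44A5, the choline kinases CHKA and CHKB, the cytidylyl transferases PCYT1A and PCYT1B, the phosphotransferases CHPT1 and CEPT1, and the methyltransferase PEMT. The set was drawn up around SLC44A1, which had been noted for its higher level in the VPA libraries of these data. Its difference between the groups is therefore given as a description, with no test. All 10 passed the filter on low counts.

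RNA came from the prefrontal cortex of 6 pigs (Sus scrofa) aged 3 months. The VPA group held 3 animals, numbered 391, 392 and 393, whose label gives valproic acid (VPA) at 75 mg/kg, a treatment that the series places in early gestation. The control group held 3 animals, numbered 401, 402 and 408, labelled as given no treatment, so the labels name no vehicle. Valproic acid is an antiepileptic drug and a histone deacetylase inhibitor. The series presents the exposed animals as a pig model of autism. The sources used here name no breed, litter, sex or sequencing batch.

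Phosphatidylcholine is the main phospholipid of animal cell membranes, and myelin, the membrane that oligodendrocytes wrap around axons, needs large amounts of lipid. Cells take up choline through carriers, and a choline kinase phosphorylates it. A cytidylyl transferase then activates the phosphocholine with CTP, the step that usually limits the rate, and a phosphotransferase joins it to diacylglycerol. PEMT provides a second route by methylating phosphatidylethanolamine, and that route is known mainly from liver.

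Libraries held 16285517 to 17989032 counts, and values are scaled to the library total as CPM, where 1 CPM stood for 16.3 to 18.0 reads. Pyramidal neuron, interneuron, astrocyte and oligodendrocyte markers were detected in every library, with SLC17A7, the cortical vesicular glutamate transporter gene, at 1012 to 1090 CPM in VPA and 1124 to 1161 CPM in control cortex. Markers of striatal projection neurons, from a region below the cortex, summed to 537 CPM in VPA 393, against 160.5 and 177.5 CPM in the other VPA libraries and 124 to 140.0 CPM in controls. Every fit was also run without that library. Over all genes, edgeR's quasi-likelihood test called 52 of 14373 at an adjusted p of 0.05 (0.362%), 40 higher and 12 lower in VPA. With 1 library left out the count was 0 (VPA 391 or VPA 392), 1 (VPA 393), 5 (control 402), 2 (control 408) or 66 (control 401).

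Compared per length, SLC44A2 and CHPT1 stood at the top of the 10 genes and SLC44A5 at the bottom. FPKM divides each count by gene length and library total, so it allows levels to be compared between genes. SLC44A2 had a mean of 48.5 FPKM over the 6 libraries and CHPT1 one of 46.7 FPKM, and the values of these genes overlapped. SLC44A1 followed at 18.4 FPKM and PEMT at 15.5 FPKM, again with overlapping values. CHKB, PCYT1A, CHKA and PCYT1B lay close together, with means of 13.8, 13.5, 12.3 and 12.2 FPKM. CEPT1 stood below all of these in every library, at 9.05 to 10.3 FPKM, and SLC44A5 lowest, at 1.50 to 1.97 FPKM. On the CPM scale, which is not per length, SLC44A1 was instead the highest of the 10, with 255 CPM against 187 CPM for SLC44A2. The gene lengths behind the deposited FPKM were 13858 bases for SLC44A1 and 3848 bases for SLC44A2.

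**Figure D1:**
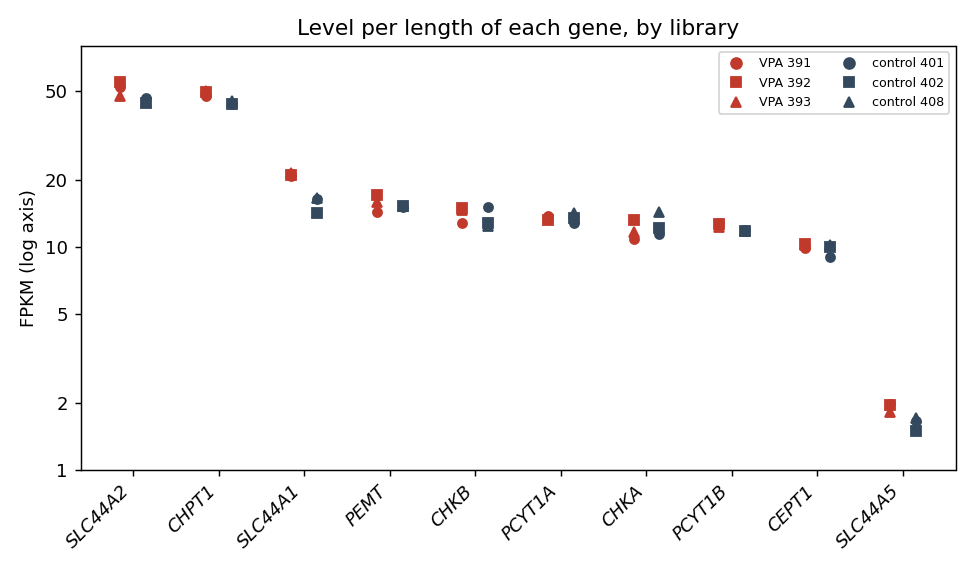
FPKM (log axis) of the 10 genes in each library, ordered by their mean, with VPA libraries in red to the left and control libraries in dark blue to the right of each gene. SLC44A2 and CHPT1 stand above the rest and SLC44A5 below it in all 6 libraries.

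SLC44A1 encodes the choline transporter-like protein that carries choline across the plasma membrane of most cell types. It had 288, 292 and 297 CPM in VPA 391, 392 and 393, against 226.5, 196 and 230.0 CPM in control 401, 402 and 408. The groups did not overlap, the 3 VPA libraries lay close together, and control 402 was the lowest library. The means were 292 ± 4.41 CPM in VPA and 217.5 ± 18.7 CPM in control cortex (SD, n = 3 each). The edgeR fit, which also scales the libraries by TMM, put the difference at 1.33-fold or 0.41 on the log2 scale. Leaving out each library in turn, and all other settings tried, gave 0.34 to 0.46 on that scale. The lowest value came from leaving out control 402, and without VPA 393 the difference was 0.41. With presence of the Y-linked gene EIF1AY as a covariate, which was at or near 0 in 1 animal of each group, it was also 0.41. Each library held at least 3304 reads of SLC44A1, so that counting error alone was at most 1.74%.

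The other carriers were also higher in every VPA library than in any control, by less. SLC44A2, a relative of SLC44A1 found on endothelial, blood and other cells, had 202, 212 and 183 CPM in VPA 391, 392 and 393, against 179, 171 and 173 CPM in control 401, 402 and 408. VPA 393 stood only slightly above the highest control. The log2 fold change was 0.18 ± 0.059 (SE), with an adjusted p of 0.18 in edgeR's test over all genes. SLC44A5, another member of the family, had 15.7, 15.5 and 14.5 CPM in VPA 391, 392 and 393, against 13.1, 11.9 and 13.5 CPM in control 401, 402 and 408. Its groups did not overlap, but its lowest library held 201 reads, for which counting error alone is 7.05%. Its log2 fold change was 0.23 ± 0.10 with an adjusted p of 0.30 in edgeR's test. Neither carrier passed the test.

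**Figure D2:**
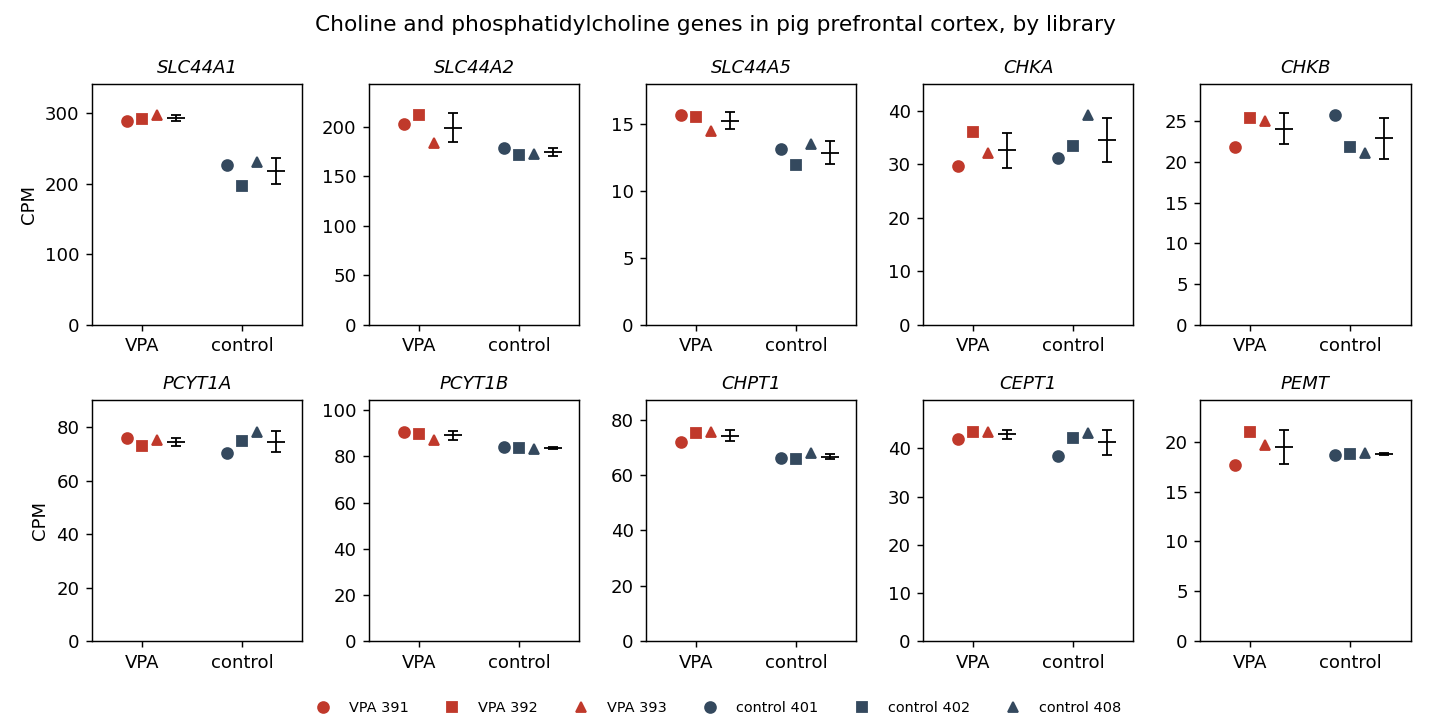
CPM of each gene by library, with the VPA group left of the control group and each axis starting at 0. Points are libraries, and the bar beside each group is its mean ± SD (n = 3). The groups are apart for the 3 carriers, PCYT1B and CHPT1, and overlap for the other 5 genes.

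The share of SLC44A1 among the 3 carriers, taken per length, was 27.6%, 27.0% and 30.3% in VPA 391, 392 and 393, against 25.4%, 23.5% and 26.3% in control 401, 402 and 408. SLC44A2 made up most of the sum in every library, from 67.2% to 70.5% in VPA and from 71.0% to 74.0% in control cortex. SLC44A5 contributed 2.50% to 2.61% in VPA and 2.49% to 2.69% in control cortex, with overlapping groups. As SLC44A1 enters the first share, no test was made of it.

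The choline kinases, which trap choline in the cell as phosphocholine, did not pass the test in either direction. CHKA had 29.7, 36.0 and 32.1 CPM in VPA 391, 392 and 393, against 31.2, 33.5 and 39.2 CPM in control 401, 402 and 408. Its groups overlapped, and control 408 was the highest library. The log2 fold change was -0.10 ± 0.10 (95% interval -0.33 to 0.13, adjusted p = 0.69 in edgeR's test), and it was 0.0015 without control 408. CHKB, the other isozyme, had 21.9, 25.4 and 25.1 CPM in VPA 391, 392 and 393, against 25.8, 21.8 and 21.2 CPM in control 401, 402 and 408. Here control 401 was the highest library and the groups overlapped. Its log2 fold change was 0.06 ± 0.10 (95% interval -0.16 to 0.28, adjusted p = 0.82 in edgeR's test), and it ran from 0.0072 without control 408 to 0.14 without control 401.

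The cytidylyl transferases, the regulated enzymes of the route, did not pass the test in either direction. PCYT1A, the isozyme found in most tissues, had 75.8, 72.8 and 75.2 CPM in VPA 391, 392 and 393, against 70.5, 74.7 and 78.4 CPM in control 401, 402 and 408. The group means were 74.6 ± 1.57 CPM in VPA and 74.5 ± 3.95 CPM in control cortex (SD, n = 3 each). With a 95% interval of -0.15 to 0.12 for the log2 fold change, a difference above 1.09-fold or below 0.904-fold lay outside it (adjusted p = 0.95 in edgeR's test). PCYT1B, an isozyme enriched in brain in mice, had 90.7, 89.7 and 86.9 CPM in VPA 391, 392 and 393, against 84.0, 83.6 and 83.2 CPM in control 401, 402 and 408. These groups did not overlap, and the controls lay closer together than the VPA libraries. The log2 fold change was 0.08 ± 0.051 (95% interval -0.03 to 0.19), with an adjusted p of 0.49 in edgeR's test.

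The phosphotransferases make the final product. CHPT1, which is specific for choline, had 71.9, 75.0 and 75.7 CPM in VPA 391, 392 and 393, against 66.3, 65.8 and 67.9 CPM in control 401, 402 and 408. Each VPA library lay above each control, and the spread within either group was small. The log2 fold change was 0.14 ± 0.055 (95% interval 0.02 to 0.26), with an adjusted p of 0.24 in edgeR's test. CEPT1, which uses choline and ethanolamine, had 41.9, 43.5 and 43.3 CPM in VPA 391, 392 and 393, against 38.4, 42.2 and 43.1 CPM in control 401, 402 and 408. Its groups overlapped, with control 401 the lowest, and the log2 fold change was 0.04 ± 0.074 (adjusted p = 0.82 in edgeR's test). It turned to -0.02 without control 401.

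PEMT, the methyltransferase of the second route, had 17.7, 21.0 and 19.7 CPM in VPA 391, 392 and 393, against 18.7, 18.7 and 18.9 CPM in control 401, 402 and 408. The VPA libraries lay on both sides of the controls. Its log2 fold change was 0.04 ± 0.093 (95% interval -0.17 to 0.24, adjusted p = 0.88 in edgeR's test), and it was -0.02 without VPA 392. Per length PEMT stood above CHKA in every library, with 15.8 ± 1.35 FPKM in VPA and 15.2 ± 0.0849 FPKM in control cortex (SD, n = 3 each).

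**Figure D3:**
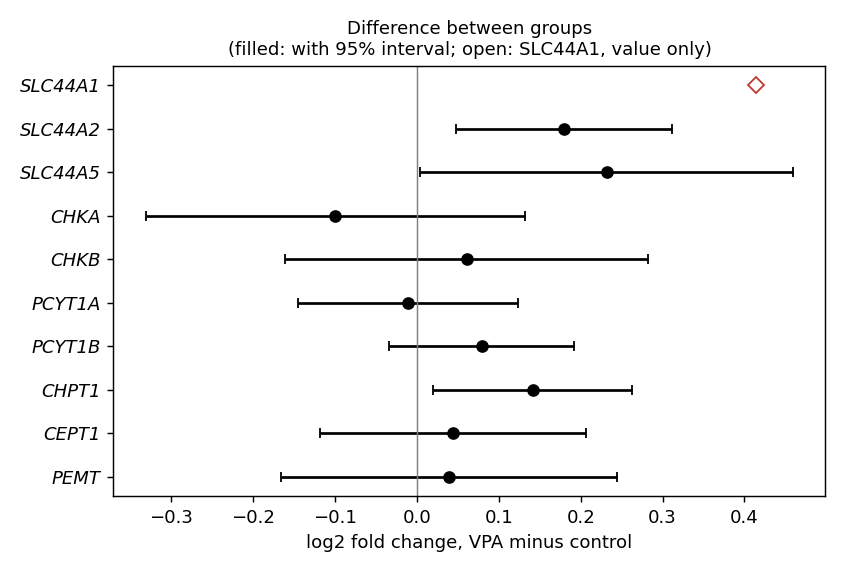
Log2 fold change (VPA minus control) of the 10 genes. Filled points carry their 95% interval from the edgeR fit; the open diamond is SLC44A1, given as a value only at 0.41. The intervals of SLC44A2, SLC44A5 and CHPT1 lie above 0 before adjustment, and those of the other 6 genes include 0.

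None of the 9 genes other than SLC44A1 passed the adjusted threshold in edgeR's test, where 0.362% of all genes did. None of the 9 passed it in DESeq2 or limma-voom either. SLC44A1 was in the same fits, but its test is not given because of how it was chosen. At an unadjusted p under 0.05 edgeR gave 3 of the 9, SLC44A2, SLC44A5 and CHPT1, all higher in VPA, where 8.69% of all tested genes were higher and 7.47% lower at that threshold. Groups did not overlap in 4 of the 9, all higher in VPA, where this held for 12.1% of all tested genes, and 9.07% were lower without overlap. The median log2 fold change of the 9 was 0.06, against 0.0018 over all 14373 genes tested. In these bulk samples a change in the number of cells of a type and a change in RNA per cell cannot be told apart.

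The balance between the isozymes of each step was compared per length. CHKA made up 45.8%, 46.8% and 44.3% of the summed kinase FPKM in VPA 391, 392 and 393, against 42.9%, 48.8% and 53.6% in control 401, 402 and 408 (exact two-sided permutation test, p = 0.50). PCYT1A made up 51.8 ± 0.785% of the cytidylyl transferase FPKM in VPA and 53.3 ± 1.44% in control cortex (SD, n = 3 each, exact two-sided permutation p = 0.20). CHPT1 made up 82.9 ± 0.126% of the phosphotransferase FPKM in VPA and 82.0 ± 0.836% in control cortex (SD, n = 3 each, exact two-sided permutation p = 0.30). The difference in the CHKA share, -2.78 percentage points, was -0.209 without control 408 and -5.53 without control 401, and that in the PCYT1A share, -1.53 points, was -0.835 without control 408. With 3 against 3 libraries this test cannot give a p below 0.1. Per length, the kinases and the cytidylyl transferases were thus each near an even split, while CHPT1 exceeded CEPT1 by 4.38 to 4.91 times in every library. This rests on the lengths behind the FPKM, 2740 bases for CHKA, 1703 for CHKB, 1507 for CHPT1 and 4238 for CEPT1. Mean CPM over all libraries was 33.6 for CHKA, 23.5 for CHKB, 70.4 for CHPT1 and 42.1 for CEPT1.

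Oligodendrocyte markers lay in the same direction as SLC44A1. All 12 of them were detected in every library, and 11 had a higher fitted level in VPA, with a median log2 fold change of 0.32 and none called in edgeR's test. Of the 12, 7 were higher at an unadjusted p under 0.05 (8.69% of all tested genes) and DESeq2 called 4 (3.14% of the genes to which it gave an adjusted p). MBP and MOG, structural genes of myelin, had log2 fold changes of 0.23 and 0.36. The 12 markers summed to 19078, 19081 and 16922 CPM in VPA 391, 392 and 393, against 17499, 12997 and 14616 CPM in control 401, 402 and 408. Unlike SLC44A1, this sum overlapped between the groups, since control 401 stood above VPA 393. In that pair SLC44A1 had 297 CPM in VPA 393, against 226.5 CPM in control 401.

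Set against those markers, SLC44A1 no longer separated the groups. Per 1000 CPM of the 12 markers it had 15.1, 15.3 and 17.6 CPM in VPA 391, 392 and 393, against 12.95, 15.1 and 15.7 CPM in control 401, 402 and 408. Relative to the mean log2 CPM of the markers, which weights each marker equally, the values were -0.54 to -0.37 in VPA and -0.78 to -0.52 in control cortex. On that scale all 10 genes had overlapping groups. The marker mean itself ran from 8.168 in control 402 to 8.605 in control 401, and subtracting it carries that spread over. For PCYT1B, controls at 83.2 to 84.0 CPM came to lie at -2.21 to -1.78. The overlap therefore says little about the members. The mean difference was 0.14 for SLC44A1 and lay below 0 for the other 9, between -0.05 for SLC44A5 and -0.38 for CHKA. A value below 0 means only that the gene differed by less than the marker mean did. These ratios were chosen after the values had been seen, and the part that oligodendrocyte content has in the difference of SLC44A1 was not tested.

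**Figure D4:**
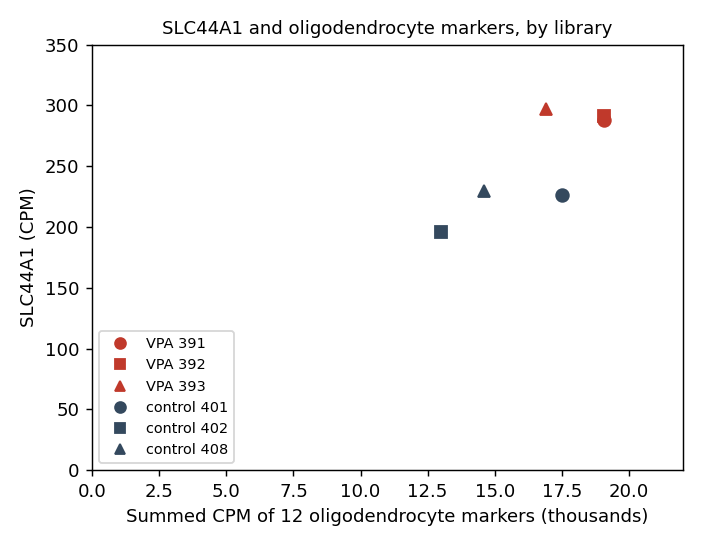
SLC44A1 (CPM) against the summed CPM of 12 oligodendrocyte markers in each library, with VPA libraries in red and control libraries in dark blue. SLC44A1 lies at 288 to 297 CPM in VPA and 196 to 230.0 CPM in control cortex, while the marker sums of VPA 393 and control 401 are in the opposite order.

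Some marker lists of other cell types also lay mostly in one direction. Fitted levels were higher in VPA for 6 of 6 astrocyte markers (median log2 fold change 0.21, 4 at an unadjusted p under 0.05), for 6 of 7 precursor markers (median 0.18, 4 at that p) and for 8 of 8 striatal markers (median 1.16, 7 at that p). They were lower in VPA for 5 of 6 glutamatergic markers (median -0.16, 4 at that p). Other lists were mixed. Fitted levels were higher in VPA for 4 of 6 interneuron markers (0 of the 6 at that p) and 4 of 6 microglial markers (1 at that p). For endothelial markers this held for 3 of 5 (0 of the 5 at that p). Over all tested genes, 8.69% were higher and 7.47% lower at that p. Of these markers edgeR called none, while DESeq2 called 2 astrocyte, 1 precursor, 2 striatal and 2 glutamatergic ones. DESeq2 called 3.14% of the genes to which it gave an adjusted p. Astrocyte markers summed to 8170 to 9481 CPM in VPA and 7525 to 8214 CPM in control cortex, and the 7 precursor markers to 950 to 1128 CPM in VPA and 781 to 924 CPM in control cortex. Glutamatergic markers summed to 3641 to 3970 CPM in VPA and 3882 to 4003 CPM in control cortex. Endothelial markers summed to 276 to 337 CPM in VPA and 281 to 290 CPM in control cortex, and microglial markers to 371 to 389 CPM in VPA and 305 to 382 CPM in control cortex. Interneuron markers summed to 738 to 773 CPM in VPA and 687 to 724 CPM in control cortex, choroid plexus markers to 62.0 to 79.4 CPM in VPA and 68.4 to 75.2 CPM in control cortex, and cholinergic neuron markers to 1.97 to 6.39 CPM in VPA and 1.25 to 3.11 CPM in control cortex. TTR, the transthyretin gene of choroid plexus, named after its values were seen, had 4.43, 4.85 and 9.84 CPM in VPA 391, 392 and 393, against 0.612, 1.42 and 1.19 CPM in control 401, 402 and 408 (log2 fold change 2.55 ± 0.38 SE, edgeR adjusted p = 0.041), while the other 4 choroid plexus markers had negative fold changes. Leaving out any 1 of the 6 libraries ended the call of TTR. Of these sums, those of precursors and interneurons did not overlap between the groups. The striatal sum did not overlap either, at 160.5 to 537 CPM in VPA and 124 to 140.0 CPM in control cortex. Their part in the values of the carriers and enzymes was not tested.

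The neighbouring genes of choline and phospholipid metabolism were read from the same fit, grouped by role. Of 52 such genes, 50 were in the count files and 44 passed the filter, and none was called by edgeR in either direction. At an unadjusted p under 0.05 there were 11 of 44 higher and 2 of 44 lower in VPA, where 8.69% of all tested genes were higher and 7.47% lower, and DESeq2 called 3 of the 44, where it called 3.14% of the genes to which it gave an adjusted p. Of the 44, 31 had positive and 13 negative fold changes, with a median of 0.10, against 0.0018 over all genes tested. The median was 0.05 without control 408. Groups did not overlap in 9 of 44 that were higher and 2 of 44 that were lower in VPA, where the shares over all tested genes were 12.1% and 9.07%.

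The 6 other carriers tested had a median log2 fold change of 0.39, which was 0.21 in limma-trend on log2(FPKM + 1), 0.11 in limma-trend with no filter on low values and 0.24 without VPA 393. Among them, MFSD2A, which brings lysophosphatidylcholine across the blood-brain barrier, had 35.7 ± 1.77 CPM in VPA and 34.0 ± 5.17 CPM in control cortex (SD, n = 3 each). SLC44A3, a further member of the SLC44 family, had 11.2, 15.0 and 17.1 CPM in VPA 391, 392 and 393, against 9.45, 11.8 and 8.47 CPM in control 401, 402 and 408. VPA 391 lay below the highest control, and the log2 fold change was 0.53 ± 0.17 (adjusted p = 0.16 in edgeR's test). FLVCR1, now known as a choline and ethanolamine carrier, had 7.58 ± 0.277 CPM in VPA and 9.29 ± 1.15 CPM in control cortex (SD, n = 3 each), with a log2 fold change of -0.31 (adjusted p = 0.31 in edgeR's test). It was lower in each VPA library than in any control. FLVCR2, named after its values were seen, lay in the other direction, also without overlap. It had 8.37, 7.06 and 9.56 CPM in VPA 391, 392 and 393, against 5.06, 6.41 and 5.97 CPM in control 401, 402 and 408. The log2 fold change of FLVCR2 was 0.51 ± 0.16 (adjusted p = 0.16 in edgeR's test). SLC5A7, the high-affinity carrier of cholinergic neurons, named after its values were seen, had 0.957, 0.798 and 3.50 CPM in VPA 391, 392 and 393, against 1.22, 0.593 and 1.31 CPM in control 401, 402 and 408. VPA 393 was the highest library and the groups overlapped. SLC22A2, also named after its values were seen, had a log2 fold change of 0.27 ± 0.34 (SE), one of the middle values behind the median. Its lowest library held 18 reads, and that of SLC5A7 held 10.

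The parallel branch that makes phosphatidylethanolamine and phosphatidylserine was centred near 0, with a median log2 fold change of -0.0048 over 7 genes. ETNK1, the main ethanolamine kinase gene by level, stood at -0.06 on that scale, and PTDSS1, a phosphatidylserine synthase gene, at -0.08. PISD, the mitochondrial phosphatidylserine decarboxylase gene, stood at 0.03. ETNK2, named after its values were seen, stood apart with 4.90, 4.36 and 6.89 CPM in VPA 391, 392 and 393, against 2.78, 3.03 and 2.67 CPM in control 401, 402 and 408. Its log2 fold change was 0.92 ± 0.22 (adjusted p = 0.088 in edgeR's test, and from 0.042 in DESeq2 to 0.23 over 17 alternatives).

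Genes that supply diacylglycerol had a median log2 fold change of 0.06 over 10 genes, 8 of them positive. LPIN2, a phosphatidate phosphatase gene, had 191 ± 14.0 CPM in VPA and 183 ± 2.78 CPM in control cortex (SD, n = 3 each). AGPAT3, an acyltransferase gene, had a log2 fold change of 0.07 and GPAM, which encodes the mitochondrial glycerol-3-phosphate acyltransferase, one of 0.12. All 3 had overlapping groups.

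Remodelling and breakdown genes had a median log2 fold change of 0.11 over 17 genes, 12 of them positive; the median was 0.04 without control 408, 0.07 without VPA 392 and 0.07 without control 402. ENPP2 encodes autotaxin, which releases choline from lysophosphatidylcholine and is also made by oligodendrocytes. It had 315, 280.0 and 302 CPM in VPA 391, 392 and 393, against 253, 229 and 251 CPM in control 401, 402 and 408. The groups did not overlap, and the log2 fold change was 0.28 ± 0.059 (adjusted p = 0.067 in edgeR's test, and from 0.0033 in DESeq2 to 0.21 over 17 alternatives). PNPLA6, a lysophospholipase gene also known as neuropathy target esterase, had 132 ± 3.61 CPM in VPA and 120 ± 1.97 CPM in control cortex (SD, n = 3 each, adjusted p = 0.24 in edgeR's test). LPCAT4, a lysophospholipid acyltransferase gene, had a log2 fold change of -0.02. PLA2G4A, the cytosolic phospholipase A2 gene, named after its values were seen, had 21.9, 19.6 and 23.3 CPM in VPA 391, 392 and 393, against 30.0, 28.1 and 26.2 CPM in control 401, 402 and 408. It was lower in each VPA library than in any control, with a log2 fold change of -0.39 ± 0.092 (adjusted p = 0.084 in edgeR's test, and from 0.039 in DESeq2 to 0.26 over 17 alternatives).

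**Figure D5:**
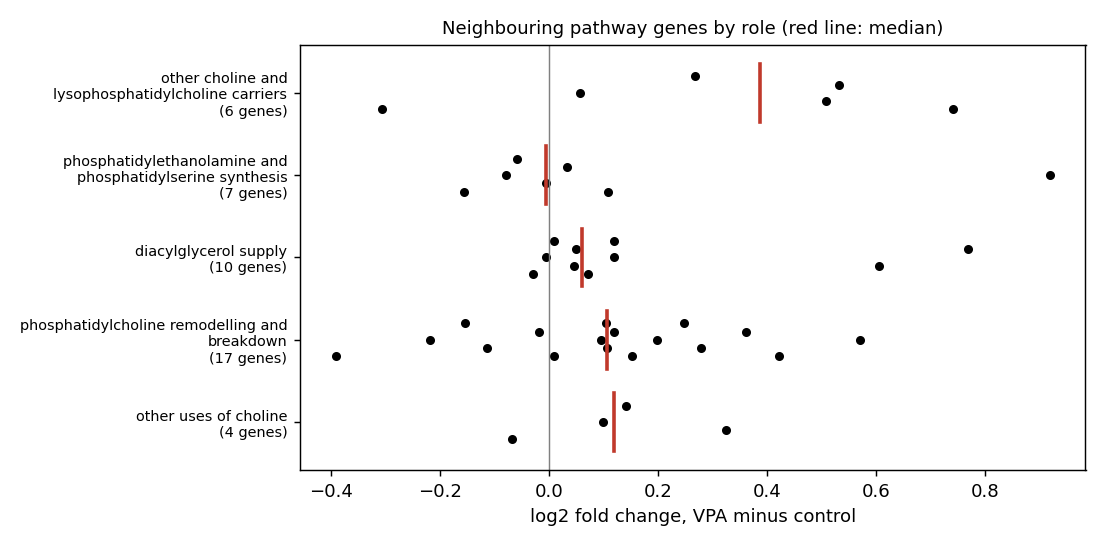
Log2 fold change (VPA minus control) of 44 neighbouring pathway genes, grouped by role; each point is a gene and the red line is the median of its group. The medians of the 5 groups lie between -0.0048 and 0.39, and no gene was called by edgeR.

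Genes that use choline for other ends were low or did not pass the test. The filter left 4 of these 8 genes untested, which are named outside the rule: CHAT, the acetylcholine-making enzyme of cholinergic neurons, and BHMT, BHMT2 and DMGDH of betaine breakdown. ALDH7A1, which takes part in making betaine, had 123 ± 8.14 CPM in VPA and 110 ± 8.23 CPM in control cortex (SD, n = 3 each, adjusted p = 0.34 in edgeR's test). ACHE, which splits acetylcholine, had a log2 fold change of 0.10 and CHDH, the choline dehydrogenase gene, one of 0.32 (adjusted p = 0.30 in edgeR's test), with overlapping groups in both.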

How the data were processed

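Per the labels' protocols, TRIzol was used for total RNA and a VAHTS Universal V6 kit for the libraries. For each library the authors deposited a file of raw counts and a file of FPKM. The sources used here name no aligner, counting tool, strandedness, build or annotation. From the count and the library total, each of the 97071 nonzero FPKM values that the authors deposited gave a gene length, which agreed between libraries to a relative 1.04e-07, so both units hold 1 measurement. Of 17201 names, 24 had been turned into dates (0.340% of counts) and were kept in library sizes. In the RefSeq table of Sscrofa11.1, used for names and neighbours only, another gene overlaps 8 of the 10 members, in 5 cases a protein-coding one. Reads from such pairs cannot be told apart here.

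Counts were fitted in R 4.3.3 with edgeR 4.0.16: filterByExpr, TMM, glmQLFit and glmQLFTest without covariates, and Benjamini-Hochberg adjustment over 14373 genes at 0.05. Log2 fold changes are VPA minus control, standard errors come from the F statistic, and 95% intervals are not adjusted. CPM used the file totals. Counting errors assume independent reads and cover counting only. Shares were tested by exact permutation in scipy 1.17.1. Alternatives were other scaling and filters, DESeq2 1.42.0, limma 3.58.1 (voom on counts; limma-trend on log2(FPKM + 1) or log2(FPKM + 0.1), mean FPKM of at least 0.5 or unfiltered), an EIF1AY covariate (at least 10 counts) and each library left out. The fits were tested on simulated data.

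Members and lists were chosen with earlier results of these data known. Named genes are all members, and in each role list called genes and the 3 with the highest mean CPM; the text says where a gene outside this rule is named. The labels name separate animals but not separate litters. Every pair of libraries differed by more than sampling noise (chi-square per degree of freedom 5.30 to 11.6 over 15 pairs). AGPAT2 and PNPLA7 were not analysed here. A marker gene that the naming rule selects is not reported here.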

Additional observations from a re-analysis of the deposited data

How the results depend on the processing

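No paired analysis was possible because the groups share no replicate numbers. Of the 9 members other than SLC44A1, 0 were called under every setting tried. Over all genes the 52 calls became 141 with no filter, 435 in DESeq2, 30 in limma-voom, 2 in limma-trend on log2(FPKM + 1) or log2(FPKM + 0.1) and 1 in limma-trend without the filter; leaving out each library gave 0 to 66. Neighbouring pathway genes called by edgeR numbered 0, and by DESeq2 3. The log2 fold change of PCYT1A (-0.01) turned to 0.0015 with library size only, to 0.0022 in limma-trend with a pseudocount of 1 (with and without the filter) and 0.0025 with one of 0.1, and over the libraries left out ran from -0.060 to 0.028. Leaving out each library, CHKA ran from -0.18 to 0.0015, CHKB from 0.0072 to 0.14, CEPT1 from -0.016 to 0.079 and PEMT from -0.019 to 0.091. SLC44A2 ran from 0.13 without VPA 392 to 0.24 without VPA 393, and SLC44A5 from 0.17 to 0.27. PCYT1B ran from 0.053 to 0.10 and CHPT1 from 0.13 to 0.16. The causes were not tested. The isozyme shares kept their direction under every setting tried, but over the libraries left out the CHKA difference ran from -5.53 to -0.209 percentage points and that of PCYT1A from -2.27 to -0.835. With 3 libraries per group the fit had 4 residual degrees of freedom, so that the intervals given with each member limit what these libraries can show.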

Other observations

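Variation among animals of the same group gives a view of these genes that does not use the difference between groups. For each gene with a mean of at least 10 CPM, the deviations of log2 CPM from the mean of its own group were compared with those of SLC44A1 over the 6 libraries. The likeness is the Pearson correlation of these deviations, given as a description. In all, 10221 genes were ranked, and so few libraries give many high values. The SD of SLC44A1 was 1.51% of its mean in VPA and 8.61% in control cortex. Its likeness therefore rests mostly on the 3 controls, of which control 402 was the lowest. The 11 oligodendrocyte markers at that level all had a positive likeness to SLC44A1, with a median of 0.64 and a range of 0.39 to 0.95. The 7 precursor markers were also positive, with a median of 0.54. All 6 astrocyte markers were negative, with a median of -0.51, as were all 6 microglial markers, with a median of -0.45. The 6 striatal markers at that level were positive too, with a median of 0.23. Other lists were mixed, with 3 of 6 glutamatergic, 1 of 6 interneuron, 2 of 5 endothelial and 1 of 2 choroid plexus markers positive. Markers of a list are compared over the same 6 libraries, so their values are not independent of each other. Over all 10221 genes the median was 0.04, and 5356 were positive. The 5 genes most like SLC44A1 were GNAO1, TBC1D9, ALDH16A1, TUBGCP3 and SOX10, at 0.99 or above. GNAO1, the nearest, had 749, 750 and 759 CPM in VPA 391, 392 and 393, against 731.5, 683 and 733 CPM in control 401, 402 and 408. In the same order of libraries, TBC1D9 had 170, 170 and 173 CPM in VPA, against 195, 168 and 197 CPM in controls. A high likeness thus did not mean the same difference between the groups. SOX10, the last of the 5, is the transcription factor gene of the oligodendrocyte lineage. It had 93.2, 93.7 and 97.9 CPM in VPA 391, 392 and 393, against 83.6, 65.9 and 83.0 CPM in control 401, 402 and 408.

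Among the members, the deviations of SLC44A1 were most like those of SLC44A5 (0.73) and CHPT1 (0.49), and had a likeness of 0.04 to those of SLC44A2. SLC44A2 was instead most like PCYT1B (0.83). CHKA was like CEPT1 (0.78) and CHPT1 (0.72), while CHKB and PCYT1A deviated in opposite directions (-0.86). The genes most like PEMT were ITPK1, UBALD1, RFC5, NSFL1C and LAMA2, at 0.98 or above. The SD of PEMT was 8.54% of its mean in VPA and 0.557% in control cortex. Its likeness therefore rests mostly on the 3 VPA libraries. With a prior count of 0.5 in place of 2, the 5 nearest genes of SLC44A1 and of PEMT were the same.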
